A study of Mus musculus with 12 samples.

Results

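The mitochondrial ribosomal protein genes encode the protein parts of the ribosome inside mitochondria. They were chosen by name: every probe set whose single gene symbol on the platform begins with Mrpl or Mrps followed by a number. This gave 127 probe sets for 74 genes, out of 22626 probe sets and 12393 genes measured. Each gene was read from its brightest probe set over the 12 arrays, taking sets ending in _x_at only if no other existed. All 74 had a mean above the 40th percentile of the probe sets, an intensity of 30.49. Of the 74, 49 belong to the large subunit and 24 to the small subunit. The remaining gene, Mrps36, carries the family name but its protein has been reassigned to the 2-oxoglutarate dehydrogenase complex. Counterparts in bacterial ribosomes are known for 46 members, and 27 are specific to mitochondria. Mrps30 and Mrps18a are named for the small subunit but sit in the large one, and are counted there.

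The mitochondrial ribosome translates the few proteins encoded by mitochondrial DNA, all of them core subunits of the respiratory chain and ATP synthase. Its RNAs come from mitochondrial DNA, whereas all of its proteins are encoded in the nucleus, made in the cytosol and imported. Output of this ribosome therefore depends on nuclear transcription, on protein import and on assembly factors. In the spleen, activated lymphocytes and macrophages are known to remodel their mitochondria, and MYC is a known activator of nuclear genes for mitochondrial biogenesis.

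Spleen RNA was compared among 4 groups of 3 mice, 1 array per mouse. Mice labelled Dusp1 wild-type or Dusp1 knockout were either left without treatment (control) or given E. coli lipopolysaccharide (LPS) at 10 µg/g of body weight into the peritoneum and killed after 6 h. DUSP1 is a phosphatase that switches off the MAP kinases p38 and JNK, and LPS is the bacterial cell wall component sensed by Toll-like receptor TLR4. Strain, age, sex and the construction of the knockout allele are not given in the sources used here.

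The Dusp1 signal was not lower in the knockout arrays. Untreated wild-type mice gave 479, 1354 and 627, and LPS-treated ones 2248, 2142 and 2116. Mice labelled knockout gave 677, 1528 and 1443 untreated and 4963, 2948 and 4996 after LPS. The signal therefore did not check the genotype labels, and "knockout" below means the label. Spleen markers were present in every array: the summed intensity of 4 measured B cell markers ran from 2924 to 11252, and that of 5 red pulp macrophage markers from 2122 to 12067. Arrays also differed within groups. The sum of 7 measured pancreas acinar markers spanned 445 to 56449 in untreated wild-type mice, 511 to 29675 in knockout controls, 174 to 361 in wild-type LPS and 263 to 384 in knockout LPS, with wild-type control 1 and knockout controls 1 and 3 highest. The β-actin 3′ minus 5′ control difference, a sign of RNA quality, was highest in wild-type control 1 (1.47, log2), then knockout control 3 (0.93), and lay at 0.26 to 0.47 elsewhere. Sex-linked genes set wild-type controls 2 and 3 apart. Xist read 35 and 47 there, whereas each of the other 10 arrays lay between 1101 and 3949. Eif2s3y went the opposite way: it read 316 and 53 in these controls and no more than 10 elsewhere. Uty (21 and 11) and Kdm5d (16 and 11) overlapped the remaining arrays at control 3. Leaving these controls out keeps only wild-type control 1 in its group. The median member difference between LPS and control in wild-type was then 0.55 (log2), against 0.36 with all arrays. The part of sex in comparisons that use the wild-type controls was not tested. No deposited value was below 6, so an intensity above 0 does not show that a marker was expressed. The lowest single intensity was 161 among the B cell markers and 24 among the red pulp macrophage markers.

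In wild-type mice 57 of the 74 members (77%) were higher after LPS than in controls, beside 5815 of all 12393 genes. By the test 3 rose: Mrps18b, Mrpl54 and Mrpl15. In knockout mice 41 members (55.4%) were lower, a share near that of all genes (6924 of 12393). By the test 12 fell there, led by Mrpl49. A call here is a two-sided limma moderated test with Benjamini-Hochberg adjusted p under 0.05 over all probe sets of the comparison. The log2 difference between LPS and control was positive in wild-type and negative in knockout for 25 members, positive in both for 32, negative in both for 16, and the reverse for Mrps18c alone.

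**Figure D1:**
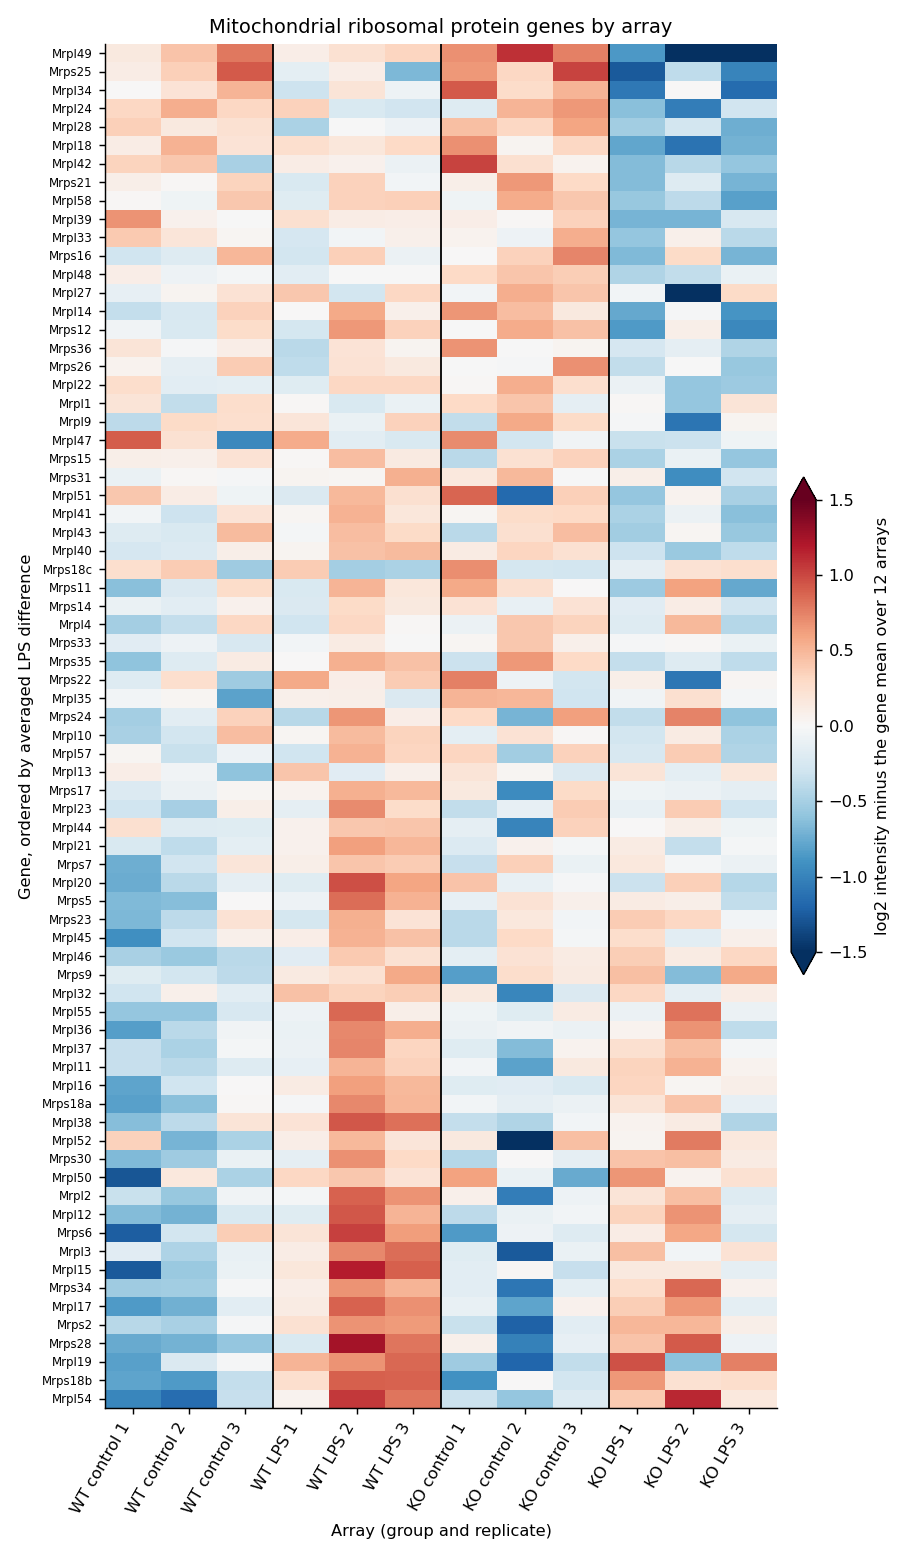
Heat map of the 74 members (rows, ordered by the LPS difference averaged over genotypes) in the 12 arrays (columns), coloured by log2 intensity minus the gene's own mean over the 12 arrays, with colours ending at 1.5 in either direction. Mrpl49 at the top is darkest blue in the 3 knockout LPS arrays, and Mrpl54 and Mrps18b at the bottom are red in the LPS arrays of both genotypes.

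Mrpl49, a mitochondria-specific protein of the large subunit, showed the largest difference. Its intensity was 280, 372 and 295 in knockout controls and 96, 44 and 54 in knockout LPS. In wild-type mice it was 193, 235 and 301 in controls and 187, 205 and 219 after LPS. Every knockout LPS array thus lay below every array of the other groups, while the wild-type groups overlapped. In limma it fell by 2.36 ± 0.28 on the log2 scale in knockout, a 5.13-fold difference with adjusted p = 0.000499 (the value after ± is limma's standard error, with 3 mice per group). The wild-type difference was -0.23 ± 0.28 with limma adjusted p = 0.762. A second probe set of Mrpl49 gave 156, 128 and 130 in knockout controls against 32, 47 and 32 in knockout LPS, and fell by 1.92 ± 0.24. It gave -0.06 ± 0.24 in wild-type. The call in knockout was kept in all 27 alternatives run.

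Mrpl18, the counterpart of the bacterial protein that binds the small ribosomal RNA of the large subunit, was also called in knockout and not in wild-type. It read 358, 230 and 277 in knockout controls and 130, 104 and 137 in knockout LPS, against 241, 321 and 258 in untreated wild-type spleens and 266, 251 and 275 in wild-type LPS. The knockout LPS arrays were the 3 lowest of the 12. It fell by 1.21 ± 0.20 in knockout (limma adjusted p = 0.00306) and was called in all 27 alternatives, whereas the wild-type difference was -0.04 ± 0.20. The difference in LPS response between the genotypes was not called for Mrpl18 or Mrpl49 (limma adjusted p = 0.408 and 0.265).

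The promoters of Mrpl49 and Mrpl18 are shown because these were the 2 members called in knockout under every alternative. The 250 bases before each annotated start site are printed 5′ to 3′ in the direction of the gene, from RefSeq. Capitals mark matches, on either strand, to the letters of the NRF1 motif (GCGCA, any base, GCGC) or CCGGAAGT (the ETS motif, bound by factors such as GABP). An NRF1 match on the opposite strand is printed as GCGC, any base, TGCGC.
Mrpl49 (fell in knockout, GRCm38.p6 chr19:6057756-6058005, minus strand): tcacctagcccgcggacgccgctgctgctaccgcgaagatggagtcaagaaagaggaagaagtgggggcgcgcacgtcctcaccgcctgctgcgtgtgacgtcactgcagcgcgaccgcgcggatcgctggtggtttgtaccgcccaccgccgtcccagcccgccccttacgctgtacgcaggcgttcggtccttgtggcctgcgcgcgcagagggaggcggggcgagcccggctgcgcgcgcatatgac
Mrpl18 (fell in knockout, GRCm38.p6 chr17:12916092-12916341, minus strand): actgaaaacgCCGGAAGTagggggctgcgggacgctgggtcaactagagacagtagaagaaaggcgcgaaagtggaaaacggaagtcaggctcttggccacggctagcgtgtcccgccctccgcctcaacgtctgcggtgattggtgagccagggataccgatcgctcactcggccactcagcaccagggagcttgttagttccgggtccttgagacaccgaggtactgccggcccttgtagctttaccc

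Both genes share their start region with a neighbour on the opposite strand: Mrpl49 with Fau, which encodes a ubiquitin-like protein fused to a cytosolic ribosomal protein, and Mrpl18 with Tcp1, a subunit of the cytosolic chaperonin CCT. In knockout mice Fau differed by 0.04 ± 0.17 (limma adjusted p = 0.925) and Tcp1 by -0.31 ± 0.45 (limma adjusted p = 0.752). Neither partner passed the test beside a member that did.

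Mrps25, a mitochondria-specific protein of the small subunit, read 180, 142 and 233 in knockout controls and 48, 88 and 58 in knockout LPS, with 124, 147 and 217 in untreated wild-type spleens and 104, 123 and 72 after LPS. LPS arrays lay below control arrays in both genotypes. It fell by 1.53 ± 0.31 in knockout (limma adjusted p = 0.00909), and its wild-type difference of -0.70 ± 0.31 was not called (limma adjusted p = 0.251). The knockout call was lost without the 3 arrays with pancreas transcripts (limma adjusted p = 0.111). A second probe set fell by 1.44 ± 0.31 in knockout.

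Mrpl28, a counterpart of a bacterial large subunit protein, read 303, 276 and 335 in knockout controls and 155, 183 and 134 in knockout LPS. In wild-type mice it read 285, 246 and 261 in controls and 160, 222 and 211 after LPS. The groups did not overlap in either genotype. It fell by 0.96 ± 0.18 in knockout (limma adjusted p = 0.00629), and the wild-type difference was -0.43 ± 0.18 (limma adjusted p = 0.222). Its knockout call was lost with each array set to the same median (limma adjusted p = 0.0562) and without the 3 arrays with pancreas transcripts (limma adjusted p = 0.0759). Other Mrpl28 probe sets, ending in _x_at, differed in knockout by -1.16 ± 0.19 (limma adjusted p = 0.00335) and -0.46 ± 0.17 (limma adjusted p = 0.104, not called). Mrpl34, also of the large subunit, read 516, 330 and 391 in knockout controls against 130, 275 and 123 in knockout LPS. It fell by 1.31 ± 0.31 (limma adjusted p = 0.0194). Its second probe set, with intensities of 12 to 16, differed by 0.03 ± 0.17. The Mrpl34 call was lost in 7 of 27 alternatives, among them leaving out control 1, LPS 1 or LPS 3 of the knockout group. Its difference ran from -1.68 to -0.64 over the alternatives, with limma adjusted p up to 0.188.

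Mrpl40, a mitochondria-specific protein of the large subunit, had differences of opposite sign in the genotypes. In knockout mice it read 428, 492 and 459 in controls and 316, 267 and 301 after LPS, and fell by 0.64 ± 0.17 (limma adjusted p = 0.031). In wild-type mice it read 330, 342 and 417 in controls and 405, 531 and 545 after LPS, a difference of 0.44 ± 0.17 that was not called (limma adjusted p = 0.176). The wild-type groups overlapped at 1 array, and the knockout groups did not overlap. The knockout call was lost in 10 of 27 alternatives (limma adjusted p up to 0.18), among them leaving out any LPS mouse or control 2 or 3 of that genotype.

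Mrpl58, a peptidyl-tRNA hydrolase built into the large subunit that rescues stalled ribosomes, read 332, 512 and 458 in knockout controls and 235, 265 and 198 in knockout LPS. It fell by 0.89 ± 0.23 (limma adjusted p = 0.0289), against 0.05 ± 0.23 in wild-type. The other members called in knockout were Mrpl14, Mrpl42, Mrpl24, Mrps21 and Mrpl48, at -0.98 to -0.67 on the log2 scale. A second probe set of Mrpl48 gave -0.47 ± 0.21 in knockout and was not called (limma adjusted p = 0.199). That of Mrpl42, with intensities of 8 to 12, gave 0.01 ± 0.16. Of 27 alternatives, the call was lost in 20 for Mrpl42, 17 for Mrpl14, 16 for Mrpl24, 7 each for Mrpl58 and Mrps21 and 6 for Mrpl48. The highest limma adjusted p among them was 0.165, for Mrpl14. Leaving out knockout LPS 1 alone ended each of these 6 calls. All 12 that fell in knockout had the more negative difference there than in wild-type, and 9 of them were also below 0 in wild-type.

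The 12 falls in knockout were 16.2% of members, beside 9.71% of all genes (7.55% of all probe sets) that fell. No member rose in knockout, where 5.54% of all genes (5.13% of probe sets) did; at an unadjusted p under 0.05, 24 members differed in either direction (32.4%, beside 28.2% of all genes). LPS and control arrays did not overlap, with LPS lower, for 17 members (23%, beside 17.6% of all genes), and with LPS higher for 7 (9.46%, beside 11.3%). All members lie among the brighter probe sets. With the dim probe sets left out of the fit, 11 members fell and 1 rose, together 16.2% of members, beside 20.3% of the remaining probe sets called in either direction. Of the 12, 10 were large subunit genes out of 49 and 2 small subunit genes out of 24. With each array set to the same median, 3 members fell and 2 rose, and the median of all probe sets moved from -0.05 to 0.17. Without the 3 arrays with pancreas transcripts, which leaves 1 knockout control assumed to vary like the others, 5 fell and 8 rose. Of the 12, 4 were still called: Mrpl49, Mrpl18, Mrpl58 and Mrps21. The count fell to 4 without knockout LPS 1, and to 6 without knockout control 2 or without knockout LPS 3.

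The 3 rises in wild-type mice were of similar size. Mrps18b, a small subunit protein of the S18 family, read 268, 257 and 362 in untreated wild-type spleens and 555, 864 and 859 after LPS. In knockout mice it read 248, 466 and 383 in controls and 731, 545 and 558 after LPS. LPS arrays lay above control arrays in both genotypes. The rise in wild-type was 1.35 ± 0.27, or 2.55-fold (limma adjusted p = 0.0148), and the knockout difference was 0.78 ± 0.27 (limma adjusted p = 0.0939).

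Mrpl54, a mitochondria-specific protein of the large subunit, read 96, 86 and 149 in untreated wild-type spleens and 196, 394 and 330 after LPS. It read 151, 127 and 164 in knockout controls and 248, 414 and 212 after LPS, again without overlap in either genotype. It rose by 1.46 ± 0.33 in wild-type (limma adjusted p = 0.024), and the knockout difference was 0.93 ± 0.33 (limma adjusted p = 0.0943).

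Mrpl15, a counterpart of a bacterial large subunit protein, read 204, 333 and 458 in untreated wild-type spleens and 549, 1107 and 910 after LPS. In knockout mice it read 439, 496 and 386 in controls and 543, 543 and 448 after LPS, where the groups overlapped. It rose by 1.38 ± 0.31 in wild-type (limma adjusted p = 0.0254), against 0.22 ± 0.31 in knockout (limma adjusted p = 0.748). Its 6 other probe sets were not called: 3 gave 0.82 to 0.93 in wild-type, and the remaining ones gave 0.55, 0.08 and -0.09. Sets ending in _x_at that were brighter than the chosen set gave 0.87 and 0.93 (limma adjusted p = 0.0635 and 0.051). Of 27 alternatives, the wild-type call was lost in 6 for Mrps18b, 9 for Mrpl54 and 8 for Mrpl15, with limma adjusted p up to 0.0896, 0.111 and 0.114. Mrpl54 and Mrpl15 were among the calls lost without the 3 arrays with pancreas transcripts.

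The 3 rises were 4.05% of members, beside 3.93% of all genes (3.39% of probe sets), so the share was near the background. No member fell, where 4.16% of all genes (3.2% of probe sets) did. With dim probe sets left out, 4 of 74 members rose and none fell, beside 10.8% of the remaining probe sets called in either direction. At an unadjusted p under 0.05, 28 members differed (37.8%, beside 21.4% of all genes). LPS and control arrays did not overlap, with LPS higher, for 24 members (32.4%, beside 10.2% of all genes). They were apart with LPS lower for Mrpl28 and Mrps25 (2.7%, beside 14.8%). No member was called on leaving out the wild-type mice control 1, control 2, LPS 2 or LPS 3 singly, or with the β-actin 3′ minus 5′ difference as a covariate. Calls numbered 8 without wild-type control 3 and 14 without wild-type LPS 1.

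**Figure D2:**
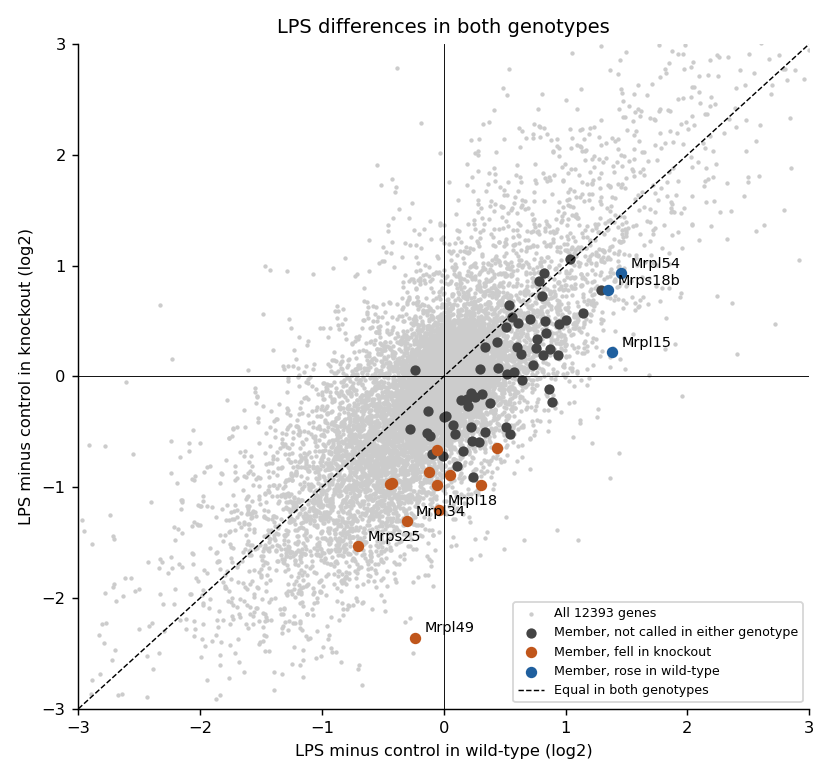
Scatter of the LPS minus control difference (log2) in wild-type mice (x axis) against that in knockout mice (y axis), for all 12393 genes within 3 log2 units (grey) and the 74 members (large points, coloured by call); the dashed line marks equal differences. Most members lie below the line, with Mrpl49 lowest, and the wild-type and knockout differences rest on separate arrays.

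Averaged over the genotypes, 13 members rose after LPS (17.6%, beside 8.52% of all genes and 8.18% of probe sets) and 8 fell (10.8%, beside 14.3% of all genes and 11.6% of probe sets). With dim probe sets left out, 12 of 74 members rose and 6 fell, beside 30.4% of the remaining probe sets called in either direction. The 8 that fell were all among the 12 that fell in knockout. The 13 that rose were above 0 in both genotypes. They were Mrpl54 (1.19 ± 0.23), Mrps18b (1.06 ± 0.19), Mrpl19, Mrps28, Mrps2, Mrpl17, Mrps34, Mrpl15, Mrpl3, Mrpl12, Mrps30, Mrpl16 and Mrpl46. Mrps2, a counterpart of a bacterial small subunit protein, rose by 0.88 ± 0.20 (limma adjusted p = 0.00956), with 195, 186 and 257 in untreated wild-type mice, 306, 416 and 405 in wild-type LPS, 206, 112 and 234 in knockout controls and 367, 369 and 277 in knockout LPS. All LPS arrays of this probe set lay above all of its control arrays. In a second Mrps2 probe set they overlapped, with controls up to 100 and LPS arrays down to 62. That set was not called on average (0.71 ± 0.25, limma adjusted p = 0.0698).

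Mrpl12, which forms the stalk that recruits translation factors and has also been reported to bind the mitochondrial RNA polymerase, read 475, 459 and 637 in untreated wild-type spleens and 659, 1422 and 1066 after LPS. In knockout mice it read 568, 701 and 727 in controls and 946, 1197 and 680 after LPS, where the groups overlapped. It rose by 0.71 ± 0.21 averaged over the genotypes (limma adjusted p = 0.0358). Mrpl49, Mrpl54, Mrps25, Mrps18b and Mrps2 kept the averaged call in all 26 alternatives run. With each array set to the same median the split was 21 higher and 3 lower, against 13 and 8, and with cyclic loess it was 19 and 7. Leaving out single arrays gave 9 calls without knockout LPS 1. It gave 7 without wild-type LPS 3, 10 on removing LPS 2 of that genotype, and 13 on removing its control 1 or control 2.

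Promoters of 3 members that rose are set below in the same form, Mrpl17 and Mrpl12 because they hold the NRF1 letters and Mrps18b as the member with the smallest adjusted p in wild-type.
Mrps18b (rose in wild-type, GRCm38.p6 chr17:35916441-35916690, minus strand): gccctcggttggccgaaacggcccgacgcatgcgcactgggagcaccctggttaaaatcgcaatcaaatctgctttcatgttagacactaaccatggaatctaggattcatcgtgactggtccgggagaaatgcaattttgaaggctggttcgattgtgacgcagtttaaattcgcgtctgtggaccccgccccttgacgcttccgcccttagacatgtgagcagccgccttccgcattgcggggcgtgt
Mrpl17 (rose on average, GRCm38.p6 chr7:105811088-105811337, minus strand): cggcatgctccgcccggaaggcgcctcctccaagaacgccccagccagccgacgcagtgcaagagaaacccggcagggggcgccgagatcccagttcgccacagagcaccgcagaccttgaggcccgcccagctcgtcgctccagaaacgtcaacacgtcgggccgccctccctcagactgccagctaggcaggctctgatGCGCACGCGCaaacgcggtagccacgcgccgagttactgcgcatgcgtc
Mrpl12 (rose on average, GRCm38.p6 chr11:120484387-120484636, plus strand): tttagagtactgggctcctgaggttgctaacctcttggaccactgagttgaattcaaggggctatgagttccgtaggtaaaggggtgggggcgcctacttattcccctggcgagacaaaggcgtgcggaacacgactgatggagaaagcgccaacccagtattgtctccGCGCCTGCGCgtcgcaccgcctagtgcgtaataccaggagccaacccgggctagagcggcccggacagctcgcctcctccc

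Windows of 300 bases around the start site, 250 before and 50 after, were in the RefSeq table for 65 of the 74 members, 71 windows in all. Searched on both strands, the NRF1 letters were in 16.9% of member windows against 4.6% of all 32851 windows. The ETS letters CCGGAAGT were in 15.5% against 3.89%, and the YY1 letters AAGATGGCG in 9.86% against 1.4%. Any of these 3 was in 40.8% against 9.24%. CACGTG, the E-box bound by MYC and MAX, was in 9.86% against 7.15%, and TATAAA in 7.04% against 13.6%. Median GC content was 58.7% in member windows and 52.7% in all. These motifs were picked with the shares in view, and GC-rich letters are more frequent in GC-rich windows. Among members with a window, the NRF1 letters were in 2 of the 8 that rose on average and 1 of the 8 that fell, and the ETS letters in 1 and 2. The NRF1 match starts 49 bases before the start site in Mrpl17 and 81 before it in Mrpl12, and the ETS match 240 before it in Mrpl18.

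Of the 65 members with a window, 22 (33.8%) had one that overlapped a window of a gene on the opposite strand, against 11.9% of 27025 genes. Partners were measured for 16 of the 22, counting Mrpl46 and Mrps11 as partners of each other. In knockout mice 1 partner fell, Klc4 (-1.17), beside Mrpl2 at 0.50. In wild-type mice no partner was called. The signs of member and partner matched for 11 of 16 pairs in wild-type and 5 of 16 in knockout. Mrps12, whose protein forms part of the decoding centre, is paired with Sars2, the mitochondrial seryl-tRNA synthetase: in knockout the difference was -0.91 ± 0.32 for Mrps12 (limma adjusted p = 0.0955) and 0.17 for Sars2.

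**Figure D3:**
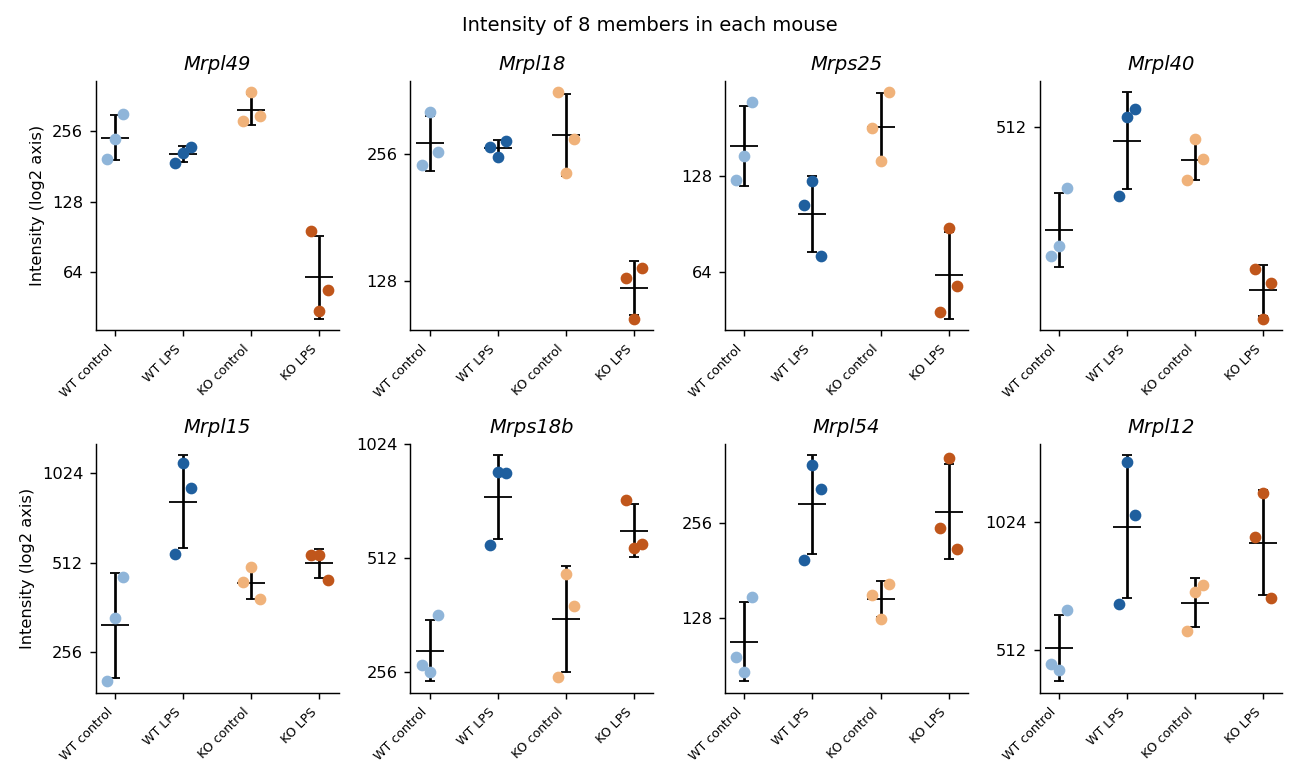
Intensity of 8 members in each mouse (points, log2 axis) by group, with the geometric mean (horizontal mark) and 1 SD on the log2 scale (bar, n = 3). Mrpl49, Mrpl18, Mrps25 and Mrpl40 are lowest in knockout LPS, and Mrpl15, Mrps18b, Mrpl54 and Mrpl12 are higher after LPS in wild-type mice.

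Comparing genotypes directly after LPS, the knockout was below the wild-type for 66 of 74 members (46.6% of all genes lay below). Mrpl49 was the 1 member called lower, at -1.73 ± 0.28 (limma adjusted p = 0.0357), and its second probe set was also called (-1.49, limma adjusted p = 0.0375). This is 1.35% of members, beside 0.145% of all genes (0.15% of probe sets) called lower and 0.218% (0.168% of probe sets) called higher. Mrpl18 differed by -1.10 ± 0.20 with limma adjusted p = 0.055, past the threshold in 7 of 27 alternatives. Mrpl40 differed by -0.74 ± 0.17 (limma adjusted p = 0.13) and Mrpl58 by -0.76 ± 0.23 (limma adjusted p = 0.276).

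The Mrpl49 call was lost in 13 of 27 alternatives, with limma adjusted p up to 0.177. These included leaving out control 2 or any LPS mouse of the wild-type group, or control 3, LPS 2 or LPS 3 of the knockout group, and leaving out the 3 arrays with pancreas transcripts (limma adjusted p = 0.0571). Its difference stayed negative in all 27. The groups did not overlap, with knockout lower, for 16 members (21.6%, beside 9.6% of all genes), and for no member with knockout higher (8.73% of all genes). At an unadjusted p under 0.05, 15 members differed (20.3%, beside 10.2%). Markers of other organs differed between the same arrays. The 5 lung markers summed to 143 to 264 in wild-type LPS and 172 to 2148 in knockout LPS, and the 6 measured of 7 liver markers to 724 to 3741 and 1129 to 6382. Their part in the members' differences was not tested.

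In control mice the direction was the other way: the knockout was above the wild-type for 59 of 74 members, beside 62.5% of all genes. No member and no other probe set was called by limma (0%), and 3 members had an unadjusted p under 0.05 (4.05%, beside 1.42% of all genes). No alternative called a member in this comparison. Mrpl46, a large subunit protein, read 243, 231 and 257 in untreated wild-type spleens and 309, 395 and 372 in knockout controls, a difference of 0.55 ± 0.18 (limma adjusted p = 1). The 2 groups did not overlap. Groups were apart, with knockout higher, for 6 members (8.11%, beside 1.53% of all genes): Mrpl20, Mrpl40, Mrpl46, Mrpl48, Mrpl55 and Mrps33. They were apart with knockout lower for no member (0.952% of all genes).

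The difference between the LPS responses (knockout minus wild-type, the interaction) was below 0 for 69 of 74 members, beside 56.1% of all genes. The median over members was -0.52 against -0.04 over all probe sets. No member or other probe set was called by limma (0%), and no alternative called a member. At an unadjusted p under 0.05, 18 members differed (24.3%, beside 6.46% of all genes). The smallest p-values belonged to Mrpl49 at -2.12 ± 0.39 (limma adjusted p = 0.265), Mrpl40 at -1.08 ± 0.24 (limma adjusted p = 0.345), Mrpl18 at -1.17 ± 0.28 (limma adjusted p = 0.408) and Mrpl14 at -1.29 ± 0.40 (limma adjusted p = 0.66). So a different LPS response was not shown for any single member. The members above 0 were Mrpl19, Mrpl52, Mrps2, Mrps18c and Mrps34, at 0.03 to 0.29. Members share arrays, so these counts are not independent observations.

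Median member differences followed the same order. They were 0.36 in wild-type (all probe sets -0.02), -0.17 in knockout (-0.05), 0.20 between genotypes in controls (0.06) and -0.30 between genotypes after LPS (0.02). In knockout the member median was 0.05 when each array was set to the same median, with all probe sets at 0.17. Without the 3 arrays with pancreas transcripts it was -0.15, with all probe sets at -0.19. Large and small subunit genes had close medians: 0.38 and 0.39 in wild-type, -0.16 and -0.17 in knockout, and -0.53 and -0.51 for the interaction. Genes with a bacterial counterpart and mitochondria-specific genes had 0.41 and 0.34 in wild-type spleens, whereas the knockout medians were -0.07 and -0.36. No test was made between these classes.

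Mrps16, a counterpart of a bacterial small subunit protein, was not called in any comparison. It read 781, 840 and 1352 in untreated wild-type mice, 792, 1231 and 902 after LPS, 961, 1221 and 1593 in knockout controls and 606, 1173 and 590 after LPS, with overlap throughout. Its knockout difference was -0.72 ± 0.33. Mrps18a, another S18 family protein that was never called, differed by 0.87 ± 0.26 in wild-type (limma adjusted p = 0.0733) and 0.25 ± 0.26 in knockout. Mrps36, outside the ribosome, differed by -0.14 ± 0.22 and -0.51 ± 0.22. Mrps30 was called on average only, at 0.62 ± 0.17.

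**Figure D4:**
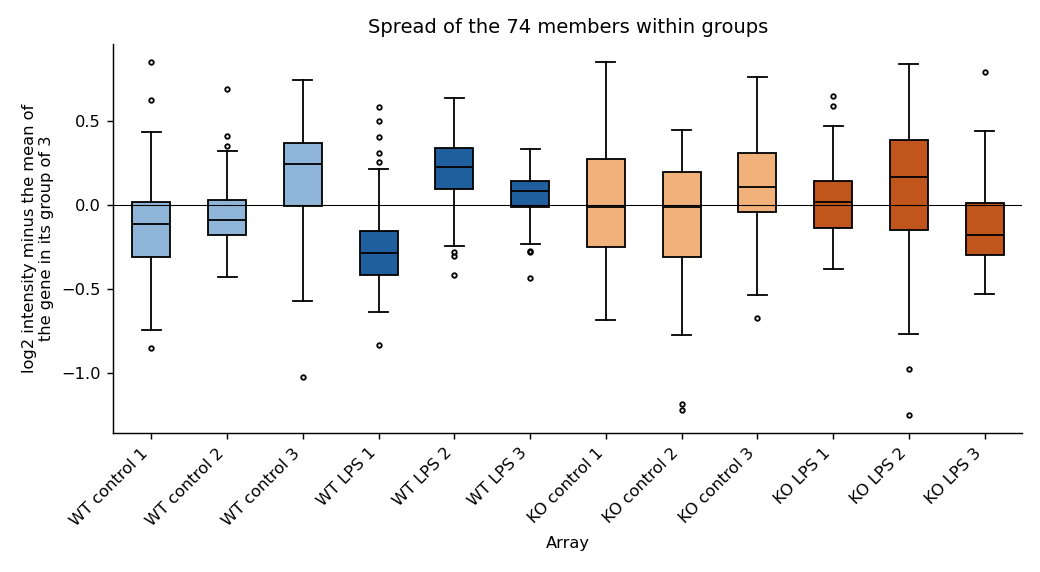
Box plots of the 74 members in each array as log2 intensity minus the gene's mean in its group of 3 arrays (box, quartiles; line, median; whiskers, 1.5 times the box; points, members beyond). Boxes sit low for wild-type LPS 1 and high for wild-type LPS 2 and wild-type control 3.

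Which array of a group was highest differed between members. In wild-type LPS, replicate 2 held the highest of the 3 values for 52 of 74 members (39.6% of all genes) and replicate 1 the lowest for 58 (54.9%). In knockout LPS, replicate 2 was highest for 44 (41.3%) and replicate 3 lowest for 42 (31.6%). Wild-type control 3 was highest for 50 (45.6%). Knockout controls 1, 2 and 3 were highest for 19, 28 and 27 (26.5%, 49.7% and 23.8% of all genes). The median intensity over members was 274.5, 293 and 311 in untreated wild-type spleens and 318.5, 444 and 404 in wild-type LPS. It was 343, 317.5 and 383 in knockout controls and 321.5, 349 and 278.5 in knockout LPS. Wild-type LPS lay above its controls on all 3 arrays, and the knockout groups overlapped. Over the 12 arrays, deviations from the group mean correlated between pairs of members with a median r of 0.21, and 61.8% of pairs were above 0. This median was 0.36 for small subunit pairs, 0.14 for large subunit pairs, 0.33 for respiratory chain subunits and 0.12 for cytosolic ribosomal proteins.

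The other nuclear genes of mitochondrial gene expression were taken from lists fixed by function. Of 17 measured factors for assembling the ribosome and modifying its RNA, none was called in wild-type. In knockout none rose and 3 fell (17.6%, beside 9.71% of all genes). These were Ngrn, needed for the mitochondrial large ribosomal RNA, at -1.81 ± 0.28 (limma adjusted p = 0.00229), Mterf4, which brings an RNA methyltransferase to the large subunit, at -1.65 ± 0.32, and Mrm1, a ribosomal RNA methyltransferase, at -0.97 ± 0.28. Ngrn read 179, 330 and 301 in knockout controls and 74, 95 and 59 in knockout LPS, with 203, 276 and 354 in untreated wild-type spleens and 244, 235 and 224 after LPS. Its knockout LPS arrays were the 3 lowest, and it was lower in knockout than in wild-type after LPS, at -1.65 ± 0.28 (limma adjusted p = 0.0422). The interaction was below 0 for all 17 (beside 56.1% of all genes), with a median of -0.67.

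Among 4 measured ribosome proteins without an Mrp symbol, Dap3, a GTP-binding protein of the small subunit, fell by 0.72 ± 0.18 in knockout (limma adjusted p = 0.0249). None of 6 measured translation factors was called in either genotype, and 1 of 11 measured aminoacyl-tRNA synthetases and partners fell in knockout, Gatc (-0.91). Of 10 genes of mitochondrial DNA upkeep, Top1mt rose in wild-type (1.43) and Polg, Polg2 and Mgme1, which copy or process that DNA, fell in knockout (-1.42, -1.37 and -0.85). Among 12 RNA processing genes, Supv3l1, Elac2 and Tbrg4 rose in both genotypes, at 1.43, 1.19 and 1.31 in wild-type spleens; the knockout values were 1.11, 1.06 and 1.14. Ptcd2 and Fastkd5 fell in knockout. Of all genes, 3.93% rose in wild-type, and 5.54% rose and 9.71% fell in knockout. For DNA upkeep the shares were 10% rising in wild-type and 30% falling in knockout. For RNA processing they were 25% rising in each genotype and 16.7% falling in knockout. The falls in knockout were 25% of the ribosome proteins without an Mrp symbol and 9.09% of the synthetases and partners.

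Of 11 regulators of biogenesis, Myc and Pprc1 rose in wild-type (2.19 ± 0.43 and 1.13 ± 0.30), and Myc and Gabpb1 in knockout (2.44 ± 0.43 and 1.36 ± 0.29). Myc read 230, 535 and 672 in untreated wild-type spleens and 1168, 3055 and 2195 after LPS, and 357, 570 and 410 in knockout controls and 2662, 2613 and 1934 after LPS. All LPS arrays lay above all control arrays. Of 23 import genes, 6 rose in wild-type, led by Tomm40 (1.54 ± 0.37), the channel of the outer membrane, Timm8a1 (1.48) and Timm10 (1.36), and Tomm70a (1.54) and Timm23 (0.82) rose in knockout. No import gene fell in either genotype, where 4.16% (wild-type) and 9.71% (knockout) of all genes did. The rises were 26.1% of import genes in wild-type and 8.7% in knockout, beside 3.93% and 5.54% of all genes. For the regulators of biogenesis the rising share was 18.2% in each genotype.

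**Figure D5:**
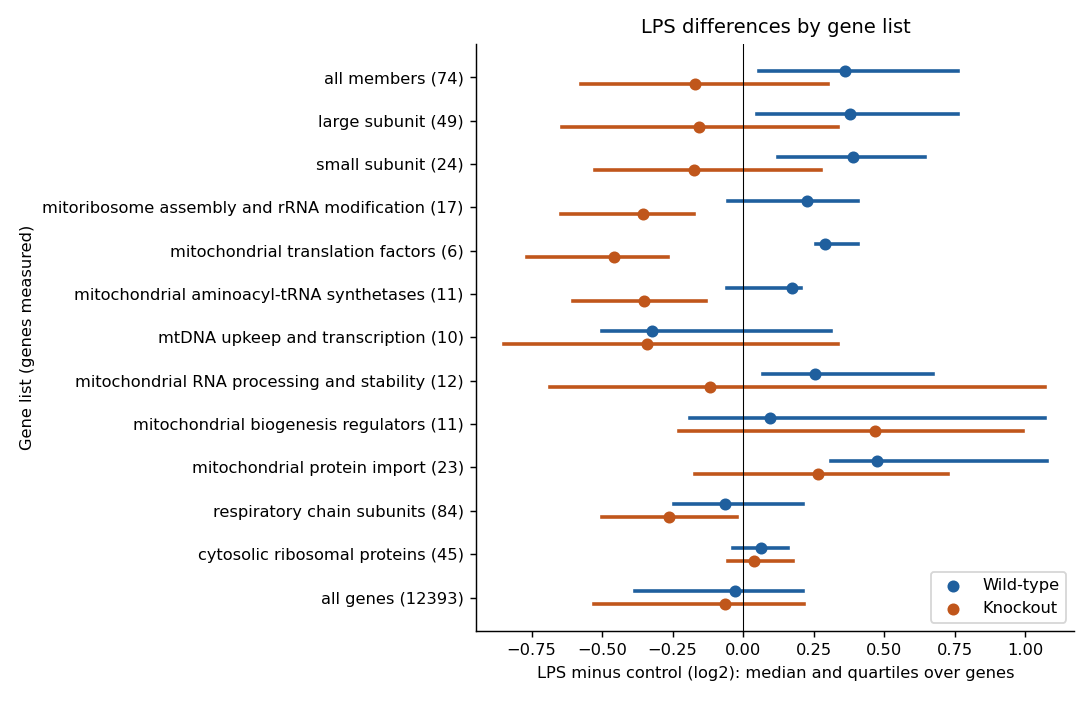
Median (point) and quartiles (line) of the LPS minus control difference (log2) over the genes of each list, in wild-type and knockout mice, with the number of genes measured in brackets. The medians of members, assembly factors, translation factors, aminoacyl-tRNA synthetases and RNA processing genes lie above 0 in wild-type and below 0 in knockout. Those of cytosolic ribosomal proteins lie close to 0 in both.

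The closest other gene families differed in their medians. The 45 cytosolic ribosomal proteins had 0.06 in wild-type, 0.04 in knockout and -0.02 for the interaction, with no call in wild-type and 1 rise in knockout. The 84 respiratory chain subunits had -0.06, -0.26 and -0.21, with 2 that rose and 1 that fell in wild-type and 2 and 7 in knockout. In wild-type these were 2.38% and 1.19%, beside 3.93% and 4.16% of all genes. In knockout they were 2.38% and 8.33%, beside 5.54% and 9.71%. The rise among cytosolic ribosomal proteins in knockout was 2.22%. No test was made between families.

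Markers of the cells in the spleen differed between LPS and control in the same arrays, though the groups overlapped for some lists. Summed intensity of the 4 B cell markers was 8119 to 10388 in untreated wild-type spleens and 3089 to 6720 after LPS, and 4562 to 11252 and 2924 to 4348 in knockout. The 4 T cell markers summed to 2246 to 3316 and 821 to 1535 in wild-type, and to 1169 to 4004 and 1372 to 1975 in knockout. In knockout the LPS range lay within the control range, and 1 of the 4 was higher after LPS. The 5 red pulp macrophage markers summed to 8947 to 12067 and 2122 to 3443 in wild-type, and to 6543 to 10552 and 4135 to 6059 in knockout. Of these 5, 1 was higher after LPS in each genotype (0.61 and 1.09, log2). The 21 cell cycle genes summed to 9765 to 16731 and 7954 to 10253 in wild-type, where the ranges overlapped, and to 8297 to 31361 and 6738 to 6877 in knockout. In whole spleen, fewer cells of a type and less RNA per cell cannot be told apart, and the part of these shifts in the members' differences was not tested.

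The members lie on 17 chromosomes, with 7 on chromosome 17, which also holds Dusp1. The nearest in gene order is Mrpl28, with 7 protein-coding genes between it and Dusp1, and it differed between genotypes by 0.20 ± 0.18 in controls and -0.33 ± 0.18 after LPS (limma adjusted p = 1 and 0.713). Mrps34, Mrps18b, Mrpl18, Mrpl14, Mrps18a and Mrpl2 are 64 to 432 genes away. Of the 33 genes with more than 1 probe set, 23 had another bright one, 33 sets in all. The sign of the LPS difference matched that of the chosen set for 28 of these 33 in wild-type and 28 of 33 in knockout, and that of the genotype difference after LPS for 23 of 33.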

How the data were processed

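Spleen RNA (5 µg) from 12 mice was hybridised to Affymetrix MOE430A 2.0 arrays, 3 mice in each of 4 groups taken from the titles. Per the labels' series text, the authors ran RMA (R affy package; version not given in the sources used here). Each deposited value was the linear intensity of 1 probe set, a whole number from 6 to 15228. Here they were log2-transformed without a further normalization. Of 22690 probe sets 64 controls were left out. A model with 4 group means was fitted to the other 22626 with limma 3.58.1 in R 4.3.3 (8 residual and 2.722 prior degrees of freedom), with Benjamini-Hochberg adjustment over all probe sets of a comparison. Each gene was read from its brightest probe set naming it alone, with sets ending in _x_at used only if no other existed. A further 3 probe sets name a member together with another gene and were left out. Sequences came from the RefSeq promoter table (GRCm38.p6), and all 74 members matched RefSeq gene IDs. Figures were drawn with matplotlib 3.10.9.

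Named genes were, per comparison, the called members up to the 12 with the largest difference, or the 4 smallest p-values where fewer than 4 passed, plus Mrpl12, Mrps12, Mrps16, Mrps30, Mrps18a and Mrps36. The rule's part on the highest and lowest mean was not used, since probe sets do not compare levels between genes. Up to 3 called genes were named per list. The members and lists were chosen with earlier results of these data known. Alternatives covered normalization, offset, filter, variance model, weights, covariates, a replicate block and leaving out arrays. Same-numbered arrays did not regularly deviate together (r from -0.58 to 0.63 over 18 pairs, median 0.064, 6 above 0.1). Pairs with other numbers had a median of 0.016, with 13 of 36 above 0.1. Numbers were therefore not treated as pairs. Wild-type LPS 2 and knockout LPS 2 did deviate together, at 0.63 over all probe sets and 0.77 over members. Tested on simulated data with 22626 probe sets and 100 changed at each size, the wild-type LPS comparison recovered 19% at a log2 change of 1 and 68% at 2. The number of arrays and the signal over background limit the precision, and p-values cover the spread between these mice.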

Additional observations from a re-analysis of the deposited data

Results flagged for a closer look

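Mrps33, a mitochondria-specific protein of the small subunit, had LPS differences of opposite sign in the 2 genotypes without overlap in either. It read 339, 362 and 324 in untreated wild-type spleens and 372, 417 and 380 after LPS. In knockout mice it read 389, 506 and 404 in controls and 379, 386 and 358 after LPS. The interaction was -0.39 ± 0.21 (log2, limma adjusted p = 0.986), so the test of the difference did not pass the threshold, and neither genotype's difference was called.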

How the results depend on the processing

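For the members called in a comparison, or with its 4 smallest p-values, whose alternatives were computed, no sign changed in that comparison, but counts of calls did. In wild-type LPS, 3 calls became 5 with each array set to the same median, 9 with cyclic loess, 21 with array weights, 1 with only the groups compared, 5 with the mean over a gene's probe sets, 1 without the 3 arrays with pancreas transcripts or with that list as a covariate, 0 with the β-actin covariate (chosen after seeing the data), and 0 to 14 on leaving out single arrays. In knockout LPS, 12 became 5 with the same median and with an intensity trend and robust prior, 19 with array weights, 4 with only the groups compared, and 4 to 11 leaving out single arrays. Averaged, 21 became 32 with array weights, 11 with the pancreas or the β-actin covariate, and 7 to 23 leaving out single arrays. Between genotypes after LPS, 1 became 2 with an offset of 16, the mean over probe sets or the erythroid covariate, 19 with array weights, 0 with the trend, only the groups compared, the β-actin covariate or without wild-type controls 2 and 3, and 0 to 2 leaving out single arrays. With the replicate block the counts were 3, 10, 20 and 0 in that order. The wild-type median was 0.55 without wild-type controls 2 and 3, the knockout median 0.047 with the same median per array, and the genotype median after LPS -0.49 to -0.23 leaving out single arrays. The cause was not tested. With 3 mice per group, small differences could not be resolved.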
